A study of Mus musculus with 6 samples.

Results

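The transcripts described here are those of 46 DNA replication and nucleotide supply genes in bEND.3, a transformed mouse line grown from endothelial cells of the brain. The members were named by symbol, from origin recognition to deoxynucleotide synthesis, and each symbol matched a gene of the count table, giving 46 of its 49315 genes. GapmeR samples were cells transfected with 100 nM of an antisense oligonucleotide with locked nucleic acid ends that directs RNase H to the long noncoding RNA Gm39822, and their labels give the genotype as Gm39822 knockdown. Negative Control samples were the same cells transfected with 100 nM of a control GapmeR with the same lipid reagent. Ribosomal RNA was depleted, the reads were paired, and the counts of 4 GapmeR and 2 Negative Control samples were analysed. A single GapmeR design against Gm39822 is listed in a single cell line, so the loss of Gm39822 and any other action of that oligonucleotide cannot be told apart. Neither the labels nor the methods say that the samples came from separate cultures, so p-values measure only the spread between these samples, which may be technical.

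Before a cell divides, the origin recognition complex marks the sites where replication may begin, and CDC6 and CDT1 load the ring-shaped MCM helicase onto them. CDC7 kinase with its partner DBF4, together with MCM10, CDC45 and the GINS complex, turns the loaded ring into an active helicase, after which primase and the replicative polymerases copy both strands, held on the template by the sliding clamp PCNA that replication factor C loads. Ribonucleotide reductase, thymidylate synthase and thymidine kinase supply the deoxynucleotides, and many of these genes are transcribed through E2F factors as cells leave G1. Endothelial cells of an adult vessel are mostly quiescent, whereas a cultured line such as bEND.3 cycles.

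Gm39822, the transcript targeted, was counted 2, 1, 4 and 2 times in GapmeR samples 1 to 4, and 61 and 56 times in the controls. Its log2 fold change of -4.82 had a standard error of 0.41 (adjusted p = 8.82e-08 by edgeR's quasi-likelihood test and the Benjamini-Hochberg method), so the labels and the targeted RNA went together in every sample. The GapmeR libraries held 30264086 to 37117934 counts, and the control libraries 29261988 and 34266811. All 12 endothelial markers examined were present, at a mean of at least 86.8 CPM (read counts scaled to the size of each library), with summed levels of 9170 to 10496 CPM in the GapmeR samples against 10993 and 11443 CPM in the controls. Of these 12 markers, 7 were lower and 2 higher after knockdown, where 20.0% of all genes tested were lower and 25.4% higher. Summed macrophage markers were at 232, 213, 366 and 398 CPM in GapmeR samples 1 to 4 and at 182 and 177 CPM in the controls. Among these 12 genes 2, Cd68 and Fcgr1, were higher in edgeR, with 4 higher in DESeq2 and 3 in limma-voom. The log2 fold change was above 0 in 11 of the 12, and Cd14 was at -0.48 (edgeR adjusted p = 0.0805). Summed mural cell markers were at 8.38 to 12.7 CPM against 1.97 and 1.91 CPM. Myh11 and Tagln were higher of the 6 tested, with Myh11 at a mean of 5.64 CPM against 0.308 CPM in the controls. Pdgfrb, Rgs5, Acta2 and Cspg4 did not pass. GapmeR means of Pdgfrb, Rgs5 and Cspg4 were only 0.328, 0.300 and 0.194 CPM. Cnn1 and Des were at no more than 3 and 4 counts in any sample. Fibroblast markers summed to 74.2 CPM in GapmeR 3 and to 14.5 to 20.0 CPM in the other samples, and 0 of 5 passed in edgeR or DESeq2, with 1 at an unadjusted edgeR p under 0.05 and 1 lower in limma-voom.

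Because E2F sites are the best known regulatory feature of replication gene promoters, RefSeq promoter windows of GRCm38.p6, running from 250 bases before to 50 bases after a transcription start, were searched for fixed letters. Such windows were found for 39 of the 46 genes, 48 windows in all, and none was in the table for Gins1, Gins2, Gins4, Mcm4, Pole, Prim2 and Rfc2. The letters TTTCGCGC or TTTGGCGC, read on either strand, were present in 10 of the 48 windows, or 20.8% (95% exact binomial interval 10.5 to 35.0%, and windows of a gene can overlap), and in 0.813% of all 32851 windows. They stand here in capitals with 10 bases on either side, where the window reaches that far, as 1 site for each of the 10 genes that hold any, read along the strand of the gene (+ or -).
Orc1, chr4:108579417-108579444 (+): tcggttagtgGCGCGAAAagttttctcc
Mcm3, chr1:20820263-20820284 (-): cttgggaagtTTTGGCGCcaag
Mcm5, chr8:75109346-75109373 (+): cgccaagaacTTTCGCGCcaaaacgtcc
Mcm6, chr1:128359735-128359762 (-): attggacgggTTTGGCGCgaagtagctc
Mcm7, chr5:138171850-138171877 (-): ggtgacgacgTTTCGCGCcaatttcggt
Cdt1, chr8:122568037-122568064 (+): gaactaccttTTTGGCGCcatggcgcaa
Pola1, chrX:93632276-93632303 (-): tcatcacaggGCGCCAAAtgcactcccg
Pole2, chr12:69228163-69228190 (-): gtcggcggtgGCGCCAAAtcgcgaacat
Rfc3, chr5:151651201-151651228 (-): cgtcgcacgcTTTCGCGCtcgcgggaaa
Lig1, chr7:13278842-13278869 (+): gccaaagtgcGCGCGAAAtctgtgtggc
Mcm5 held 1 further site that overlaps the printed one and Mcm6 held 2 further sites that overlap each other, for 13 sites in all. The windows printed for Orc1 and Lig1 lie inside their RefSeq gene records. Those for Mcm5, Mcm7, Pola1 and Pole2 have their transcription start within the record, nearer to its edge.

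Of the 10 genes with these letters, 7 were higher after knockdown and Cdt1, Mcm6 and Rfc3 did not pass the test, with a median log2 fold change of 0.45. Of the 29 genes with a window and without the letters, 21 were higher, with a median of 0.33, and the 2 most raised genes, Mcm10 and Cdc6, were among these 29. Genes that rose and genes that did not pass were thus found with and without the letters. Other forms of the site, TTTCCCGC or GGCGGGAA on either strand, which share bases with each other, were in 27.1% of the member windows and 2.73% of all windows. Cdc6 held this form, shown in capitals, in a window that lies inside its RefSeq gene record.
Cdc6, chr11:98908003-98908030 (+): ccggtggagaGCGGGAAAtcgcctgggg
The CCAAT box, searched as CCAAT on either strand, was in 52.1% of member windows and 37.4% of all windows. The cell cycle element TTTGAA, searched on either strand, was in 16.7% and 17.9%. A match is a description of the letters and not of a bound site.

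As examples, the 250 bases before the start are given for Mcm10, the most raised member, for Rrm2, which also rose, and for Pcna, which did not pass the test, with CCAAT or its reverse complement ATTGG in capitals.
Mcm10, chr2:5012792-5013041 (-): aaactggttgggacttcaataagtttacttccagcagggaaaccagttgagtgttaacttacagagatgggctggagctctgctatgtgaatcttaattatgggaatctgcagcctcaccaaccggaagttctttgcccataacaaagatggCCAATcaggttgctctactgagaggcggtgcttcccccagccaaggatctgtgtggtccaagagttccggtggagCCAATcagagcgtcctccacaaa
Rrm2, chr12:24708004-24708253 (+): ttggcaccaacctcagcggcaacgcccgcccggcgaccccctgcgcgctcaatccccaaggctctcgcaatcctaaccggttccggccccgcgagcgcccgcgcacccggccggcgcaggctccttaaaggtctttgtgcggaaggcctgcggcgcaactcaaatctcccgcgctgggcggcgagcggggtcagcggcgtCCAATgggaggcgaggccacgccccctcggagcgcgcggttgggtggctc
Pcna, chr2:132253181-132253430 (-): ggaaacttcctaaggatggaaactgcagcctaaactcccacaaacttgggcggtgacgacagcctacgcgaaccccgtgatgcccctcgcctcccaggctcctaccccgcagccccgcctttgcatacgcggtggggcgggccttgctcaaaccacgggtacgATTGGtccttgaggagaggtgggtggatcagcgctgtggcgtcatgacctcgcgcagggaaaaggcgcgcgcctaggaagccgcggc
Mcm10 held 2 such boxes and Rrm2 and Pcna held 1 each, and none of these 3 stretches held any of the E2F letters searched, whereas the Cdc6 window held the alternative form shown above.

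After knockdown of Gm39822, transcripts of most of the replication machinery were higher by modest amounts. Of the 46 genes, 32 were higher after knockdown (edgeR, adjusted p under 0.05 with 18234 genes tested), or 69.6%, where 25.4% of all genes tested were higher. No member was lower by edgeR, also at an unadjusted p under 0.05, by DESeq2 (32 higher, 0 lower) or by limma-voom (31 higher, 0 lower), where 20.0% of all genes tested were lower. The median log2 fold change was 0.34 over the members and 0.03 over all genes tested, and 42 of the 46 were above 0. All 46 passed the filter (5 or more counts in 2 or more samples), and the lowest count of any member in any sample was 105. Among the 9977 genes with a mean level of at least that of the lowest member, 5.56 CPM, 22.7% were higher and the median was -0.05.

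The changes of single members ran from -0.16 for Prim2 to 1.07 for Mcm10 on the log2 scale. Of the 46, 5 were at least 1.5-fold higher and past the threshold, namely Cdc6, Mcm10, Pole, Rrm2 and Rpa2, where 17.8% of all genes tested were. Among the 9977 genes with a mean level of at least that of the lowest member, 937 were. All GapmeR samples lay above both controls in 34 members, where this held for 31.9% of all genes tested, and in 0 members did all lie below both, where 27.3% of all genes tested did. Without Negative Control 2 the number of members higher fell to 21 and the share of all genes tested that were higher to 18.2%, and without any other sample it was 29 to 35. Of the 46 members, 41 had more CPM in Negative Control 1 than in Negative Control 2.

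**Figure D1:**
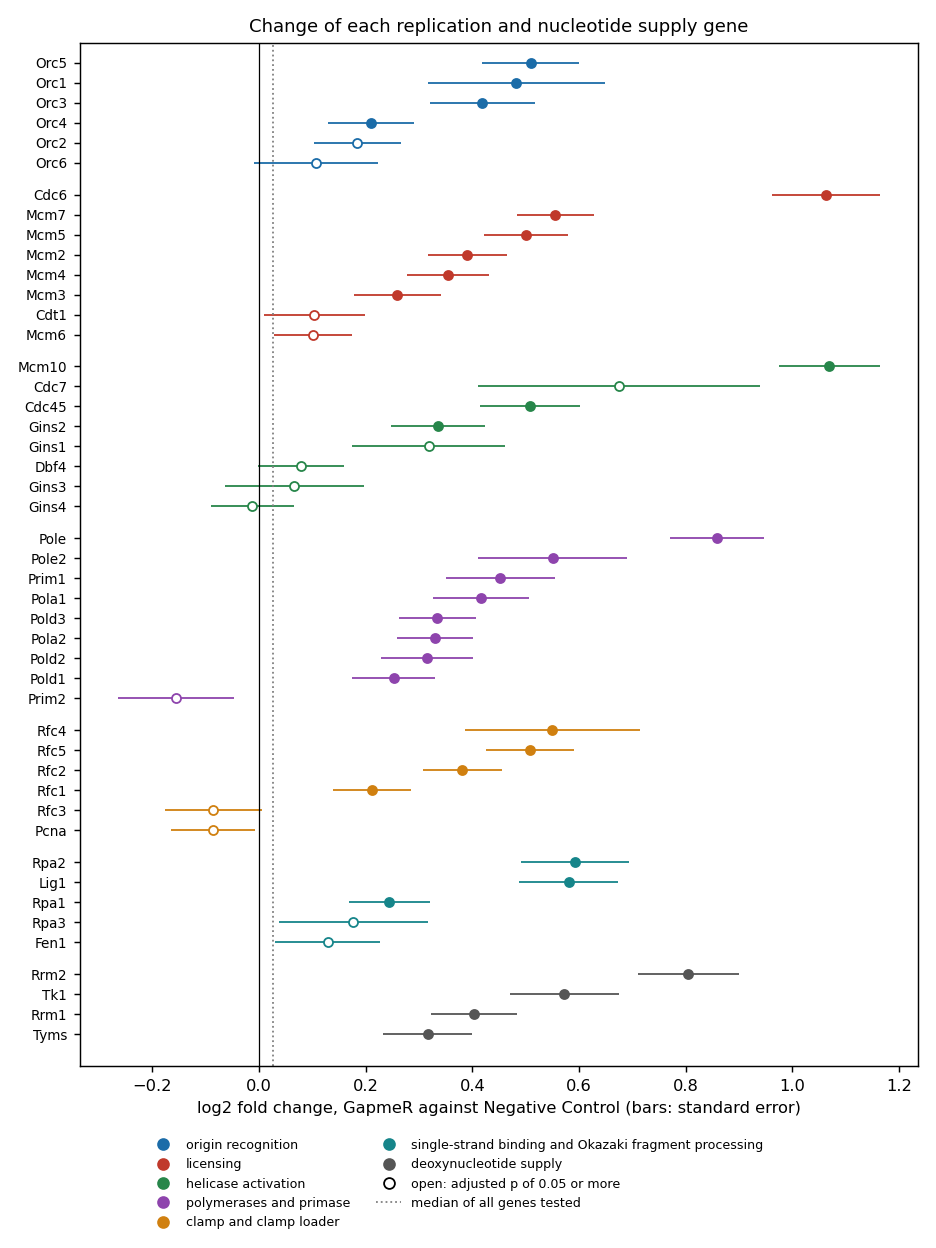
Log2 fold change of each of the 46 genes, GapmeR against Negative Control, by role, with bars for the standard error, filled points for an adjusted p under 0.05 and a dotted line at the median of all genes tested, 0.03. The 32 filled points all lie to the right of 0, with Mcm10 and Cdc6 farthest out, and Prim2, Rfc3, Pcna and Gins4 lie to the left of it without passing.

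In the plot of changes by role, every role held raised genes and none was raised as a whole except deoxynucleotide supply. The genes higher numbered 4 of 6 in origin recognition, 6 of 8 in licensing, 3 of 8 in helicase activation, 8 of 9 among polymerases and primase, 4 of 6 in the clamp and its loader, 3 of 5 in single-strand binding and Okazaki fragment processing and 4 of 4 in deoxynucleotide supply. Over all genes tested 25.4% were higher, and 22.7% of those with a mean level of at least that of the lowest member. The role medians lay between 0.24 and 0.49. Whether roles differ from each other was not tested.

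A share of all counts scales each sample by its library size only. By this share the 46 genes together held 0.250%, 0.264%, 0.243% and 0.264% of the counts of GapmeR samples 1 to 4. In the controls they held 0.192% and 0.176%. On the scale of TMM-normalized CPM, which adds edgeR's correction for library composition, they summed to 2438, 2517, 2369 and 2538 CPM in the GapmeR samples against 2056 and 1888 CPM in the controls. The groups did not overlap, and the mean of 2465 ± 77.3 CPM (SD, n = 4) was 1.25 times that of 1972 ± 119 CPM (SD, n = 2). GapmeR 3 was the lowest of its group, with a median log2 difference of its members from the control mean of 0.24, against 0.37 to 0.41 in the others. In bulk RNA, more cells in S phase and more of each transcript per cell cannot be told apart. In a separate BrdU incorporation assay, the paper reports that proliferation of bEND.3 cells decreased after Gm39822 knockdown. How that assay relates to these transcripts was not tested.

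GapmeR samples 3 and 4 had the most macrophage marker RNA, and GapmeR 1 and 2 summed to 232 and 213 CPM of these markers, above the 182 and 177 CPM of the controls. With GapmeR 1 and 2 alone against the controls, an alternative chosen after seeing the data, 34 members were higher, including all 32 of the full comparison. The part of macrophage RNA in the result was not tested. This choice of samples cannot show it, since the macrophage sums of GapmeR 1 and 2 also exceeded both controls. GapmeR 3, with the highest mural and fibroblast sums, had the lowest member sum, and GapmeR 4, with the highest macrophage sum, had the highest. Scaled by library size only, the median of all genes moved from 0.03 to 0.17 and that of the members to 0.49, and the distance between these medians was 0.32 under both. On that scaling 39 members were higher, and higher genes made up 74.1% of all calls in place of 55.9%.

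**Figure D2:**
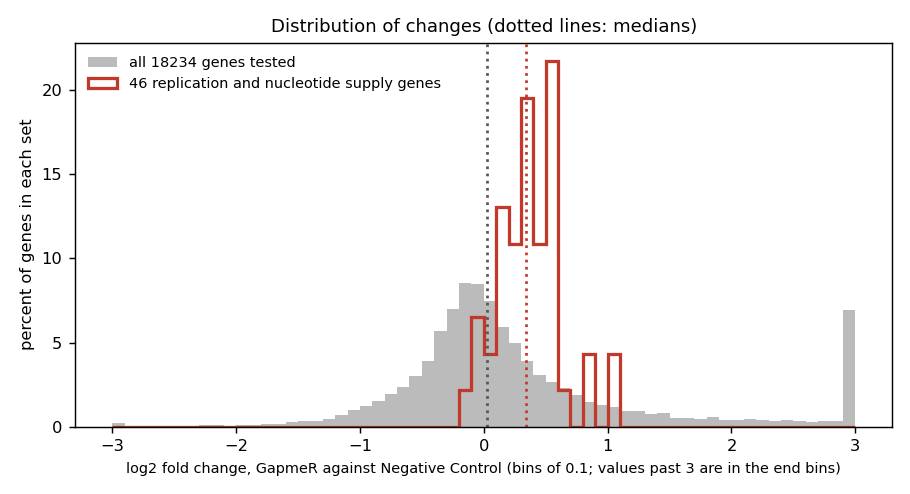
Distribution of log2 fold changes (horizontal axis, bins of 0.1) as the percent of genes in each set, for the 46 members (red outline) and all 18234 genes tested (grey), with values past 3 gathered in the end bins and dotted lines at the medians of 0.34 and 0.03. The members form a narrow hump displaced to the right of the grey peak, and none lies in the long tails on either side.

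Origin recognition came up in 4 of its 6 subunits. Orc5, which belongs to the core ring of the complex, was counted 817, 949, 678 and 829 times in GapmeR samples 1 to 4, and 457 and 544 times in the controls, or 24.1, 24.4, 21.9 and 25.7 CPM against 16.7 and 17.0 CPM. The groups did not overlap, at 24.0 ± 1.58 (SD, n = 4) and 16.9 ± 0.257 (SD, n = 2) CPM, for a log2 fold change of 0.51 (standard error 0.09, edgeR adjusted p = 0.000272). Orc1, the subunit whose level is known to swing through the cell cycle, had 226, 264, 184 and 241 counts against 159 and 123, or 6.67, 6.78, 5.93 and 7.46 CPM against 5.80 and 3.85 CPM. GapmeR 3 was only just above Negative Control 1, and the log2 fold change was 0.48 with the widest standard error of this role, 0.17 (edgeR adjusted p = 0.0264). Without Negative Control 2 Orc1 was at 0.23 (edgeR adjusted p = 0.378), without GapmeR 4 at 0.43 (edgeR adjusted p = 0.0669), and without Negative Control 1 at 0.82.

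Orc3, a further core subunit, was higher by 0.42 (edgeR adjusted p = 0.00265), and Orc4, an ATP-binding subunit, by 0.21 (edgeR adjusted p = 0.0451). Orc4 stood at the threshold, with an adjusted p of 0.0605 in DESeq2 and 0.0545 in limma-voom. In edgeR its adjusted p was 0.0868, 0.0574 and 0.0738 without GapmeR 1, 2 and 4 and 0.193 and 0.0974 without Negative Control 1 and 2. Orc2 was at 0.18 (95% interval 0.01 to 0.36, edgeR adjusted p = 0.0767) and passed without GapmeR 3, at 0.25 (edgeR adjusted p = 0.0224). Orc6, which binds the ring last, was at 0.11 (95% interval -0.14 to 0.36) with overlapping groups.

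Licensing genes were led by Cdc6, the loader of the MCM helicase, which lies on chromosome 11 from 98907709 to 98923942. Cdc6 was counted 858, 1136, 772 and 958 times in GapmeR samples 1 to 4, and 362 and 411 times in the controls, or 25.3, 29.2, 24.9 and 29.7 CPM against 13.2 and 12.9 CPM. Every GapmeR sample was far above both controls, and the log2 fold change was 1.06 (standard error 0.10, edgeR adjusted p = 3.79e-07), with means of 13.0 ± 0.238 (SD, n = 2) in the controls and 27.3 ± 2.5 (SD, n = 4) in the GapmeR samples, in CPM. Cdt1, which acts with Cdc6 in the same loading step, was at 0.10 (95% interval -0.10 to 0.30, edgeR adjusted p = 0.397). Thus the counts of Cdc6 per count of Cdt1 went from 0.339 and 0.377 in the controls to 0.647, 0.853, 0.614 and 0.683 in the GapmeR samples, a ratio that scaling between samples does not touch and a pair that was chosen after its values were seen.

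The 6 MCM genes encode the subunits of a ring that holds each in equal number. Mcm7 had 4649, 5303, 4110 and 4635 counts against 2647 and 2880, or 137, 136, 133 and 143 CPM against 96.6 and 90.2 CPM. The samples of each group lay close together, and the log2 fold change was 0.56 (standard error 0.07, edgeR adjusted p = 1.17e-05), with means of 93.4 ± 4.52 (SD, n = 2) in the controls and 137 ± 4.56 (SD, n = 4) in the GapmeR samples, in CPM. Mcm5 was higher by 0.50, Mcm2 by 0.39, Mcm4 by 0.35 and Mcm3 by 0.26, with edgeR adjusted p-values of 7.35e-05, 0.000445, 0.00145 and 0.0172. Mcm6 was at 0.10 (95% interval -0.05 to 0.26) with overlapping groups, so the members of the ring did not move by like amounts. The counts of Mcm7 per count of Mcm6 were 1.83 ± 0.0716 (SD, n = 4) in the GapmeR samples and 1.34 ± 0.0303 (SD, n = 2) in the controls, a pair also chosen after its values were seen. The call of Mcm3 was lost without Negative Control 2, at 0.24 (edgeR adjusted p = 0.145), and without GapmeR 1, at 0.23 (edgeR adjusted p = 0.0534).

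**Figure D3:**
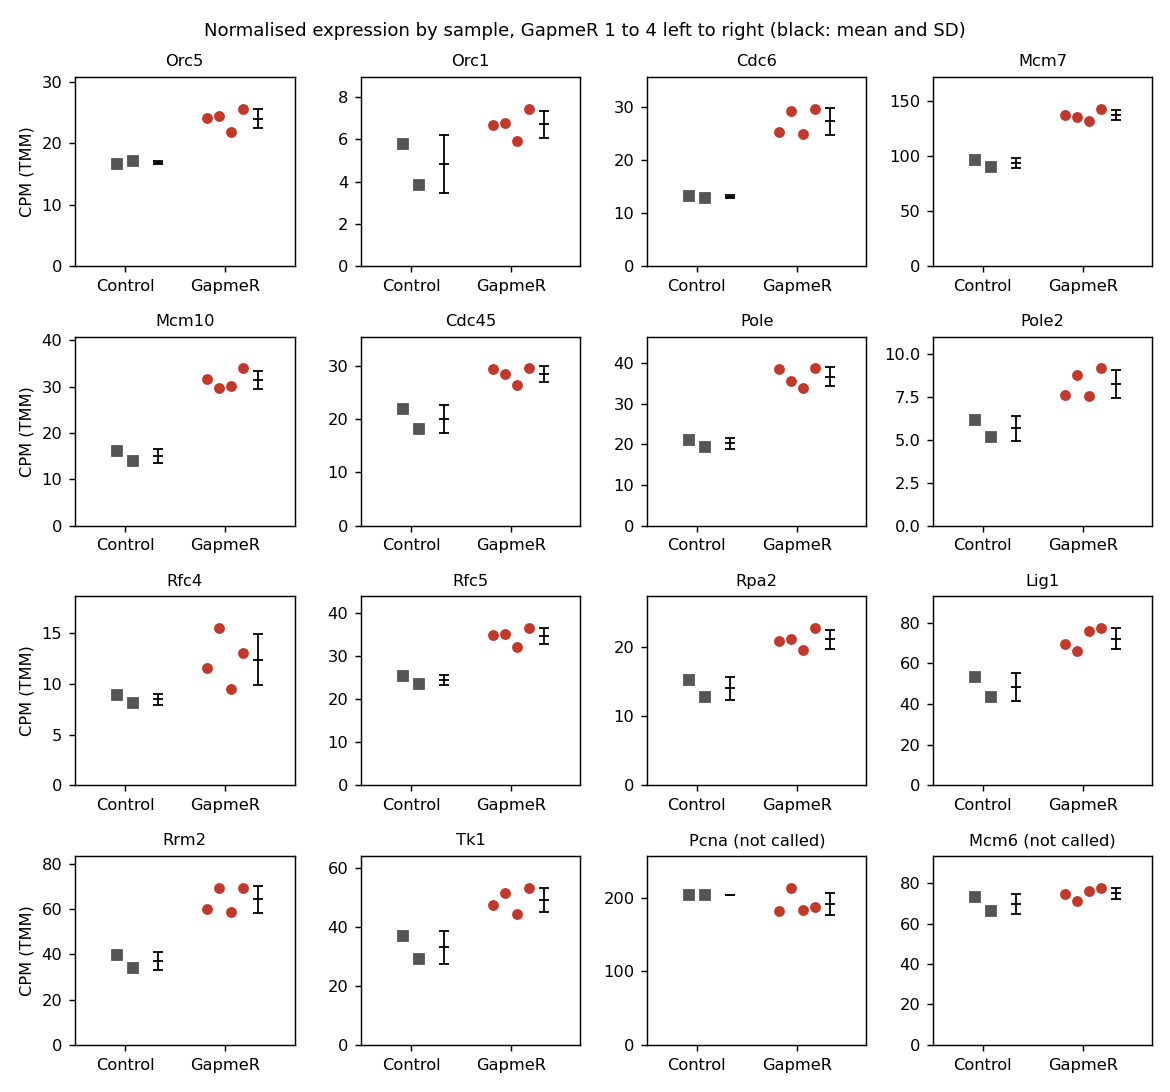
TMM-normalized expression in CPM (vertical axes, starting at 0) of 16 genes in the 2 Negative Control (grey squares) and 4 GapmeR samples (red circles), with black bars for the mean and SD. In the 14 genes called higher every red circle lies above both squares, closest in Orc1 and Rfc4, whereas in Pcna and Mcm6 the groups overlap.

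Helicase activation had the fewest raised genes for its size and held the largest change. Mcm10, which binds the loaded helicase and polymerase alpha and lies on chromosome 2 from 4990724 to 5012791, was counted 1073, 1160, 934 and 1097 times in GapmeR samples 1 to 4, and 440 and 443 times in the controls, or 31.7, 29.8, 30.1 and 34.0 CPM against 16.1 and 13.9 CPM. Its groups were well apart, at 31.4 ± 1.90 (SD, n = 4) and 15.0 ± 1.54 (SD, n = 2) CPM, for a log2 fold change of 1.07 (standard error 0.09, edgeR adjusted p = 1.68e-07). Cdc45, a fixed part of the active helicase, had 999, 1108, 820 and 957 counts against 600 and 582, or 29.5, 28.5, 26.4 and 29.6 CPM against 21.9 and 18.2 CPM. All GapmeR samples were above both controls, and the log2 fold change was 0.51 (standard error 0.09, edgeR adjusted p = 0.000352).

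Of the GINS complex, the other fixed part of the active helicase, only Gins2 passed, higher by 0.33 (edgeR adjusted p = 0.00551), and without Negative Control 2 it was at 0.31 (edgeR adjusted p = 0.0704). Gins1 was at 0.32 (95% interval 0.01 to 0.62, edgeR adjusted p = 0.0842) and passed without GapmeR 3, at 0.39 (edgeR adjusted p = 0.0298). Gins3 was at 0.07 (95% interval -0.21 to 0.34) and Gins4 at -0.01 (95% interval -0.18 to 0.15), a value whose sign depended on the setting.

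Cdc7, the kinase that fires licensed origins, had 194, 311, 128 and 242 counts against 129 and 105, or 5.73, 7.99, 4.13 and 7.49 CPM against 4.71 and 3.29 CPM. GapmeR 3 lay between the controls while the other 3 GapmeR samples were above both, and the log2 fold change of 0.67 missed the threshold (standard error 0.27, edgeR adjusted p = 0.0621). Without GapmeR 3 it was 0.85 (edgeR adjusted p = 0.000859), and DESeq2 gave an adjusted p of 0.0142 with all samples. Dbf4, the partner that activates Cdc7, was at 0.08 (95% interval -0.09 to 0.25, edgeR adjusted p = 0.447).

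Polymerases and primase were raised in 8 of 9 genes. Pole, the catalytic subunit of the leading-strand polymerase epsilon on chromosome 5 from 110286319 to 110337468, was counted 1304, 1383, 1052 and 1251 times in GapmeR samples 1 to 4, and 579 and 616 times in the controls, or 38.5, 35.5, 33.9 and 38.7 CPM against 21.1 and 19.3 CPM. No sample came near the other group, and Pole was higher by 0.86 on the log2 scale (standard error 0.09, edgeR adjusted p = 8.97e-07), with means of 20.2 ± 1.30 (SD, n = 2) in the controls and 36.7 ± 2.34 (SD, n = 4) in the GapmeR samples, in CPM. Pole2, the accessory subunit of the same enzyme, had 257, 341, 234 and 296 counts against 169 and 164, or 7.58, 8.76, 7.54 and 9.16 CPM against 6.17 and 5.14 CPM. Its groups did not overlap, the log2 fold change was 0.55 (standard error 0.14, edgeR adjusted p = 0.00436), and without Negative Control 2 it was at 0.45 (edgeR adjusted p = 0.0809).

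Polymerase alpha with primase lays down the primers. Its catalytic subunit Pola1 was higher by 0.42, its second subunit Pola2 by 0.33 and the small primase subunit Prim1 by 0.45, with edgeR adjusted p-values of 0.00132, 0.00133 and 0.00186. Prim2, the large primase subunit that pairs with Prim1, was at -0.16 (95% interval -0.39 to 0.08, edgeR adjusted p = 0.261), the lowest change of the 46. Polymerase delta, the lagging-strand enzyme, was higher in its catalytic subunit Pold1 by 0.25 and in the accessory subunits Pold2 by 0.32 and Pold3 by 0.33, with edgeR adjusted p-values of 0.0149, 0.00723 and 0.0013. Without Negative Control 2, Pold1 was at 0.16 (edgeR adjusted p = 0.232) and Pold2 at 0.25 (edgeR adjusted p = 0.122), and without Negative Control 1, Pold1 was at 0.39. The counts of Pole per count of Pold1 were 0.550 ± 0.0417 (SD, n = 4) after knockdown and 0.362 ± 0.0175 (SD, n = 2) in the controls, with no overlap, in a pair chosen after its values were seen.

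The sliding clamp did not share the rise of most members. Pcna, on chromosome 2 from 132249286 to 132253180, was counted 6152, 8320, 5693 and 6051 times in GapmeR samples 1 to 4, and 5573 and 6492 times in the controls, or 182, 214, 184 and 187 CPM against 203 and 203 CPM. GapmeR 2 was above both controls and the other 3 GapmeR samples below both, and the log2 fold change was -0.09 (95% interval -0.25 to 0.08, edgeR adjusted p = 0.391). Without GapmeR 2 Pcna was at -0.14 and past the threshold as lower (edgeR adjusted p = 0.0463), whereas scaling by library size alone put it at 0.06. The pseudogene Pcna-ps2, whose sequence resembles that of Pcna, had 3477 counts over the 6 samples against 38281 for Pcna and a log2 fold change of 0.05, so a share of reads may be split between the pair.

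Of the clamp loader, Rfc5 and Rfc4, both small ATPase subunits, changed most. Rfc5 had 1182, 1369, 999 and 1180 counts against 693 and 751, or 34.9, 35.2, 32.2 and 36.5 CPM against 25.3 and 23.5 CPM, and was higher by 0.51 (standard error 0.08, edgeR adjusted p = 0.000113) with groups far apart. Rfc4 had 391, 604, 295 and 420 counts against 243 and 259, or 11.5, 15.5, 9.51 and 13.0 CPM against 8.87 and 8.12 CPM. GapmeR 3 was barely above Negative Control 1 and GapmeR 2 far above it, so that the log2 fold change of 0.55 had a standard error of 0.16 (edgeR adjusted p = 0.0152). Without Negative Control 1 and 2, the edgeR adjusted p of Rfc4 was 0.0575 and 0.125, at 0.63 and 0.51. Rfc2 was higher by 0.38 (edgeR adjusted p = 0.000578).

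Rfc1, the large subunit of the loader, was higher by 0.21 (edgeR adjusted p = 0.0278), with adjusted p-values of 0.0585, 0.074 and 0.145 without GapmeR 1, Negative Control 1 and Negative Control 2. Rfc3 was at -0.09 (95% interval -0.28 to 0.11, edgeR adjusted p = 0.468), a sign that turned to 0.06 when scaled by library size only. The counts of Rfc5 per count of Rfc3 were 0.967 ± 0.0633 (SD, n = 4) after knockdown and 0.638 ± 0.00915 (SD, n = 2) in the controls, again a pair chosen after its values were seen.

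Single-strand binding and Okazaki fragment processing rose in 3 of 5 genes. Rpa2, the middle subunit of replication protein A, which coats unwound DNA, was counted 710, 826, 608 and 737 times in GapmeR samples 1 to 4, and 418 and 410 times in the controls, or 21.0, 21.2, 19.6 and 22.8 CPM against 15.3 and 12.8 CPM. All GapmeR samples were above both controls, and Rpa2 was higher by 0.59 (standard error 0.10, edgeR adjusted p = 0.000178). Lig1, the ligase that seals Okazaki fragments, had 2349, 2579, 2350 and 2501 counts against 1457 and 1385, or 69.3, 66.2, 75.8 and 77.4 CPM against 53.2 and 43.4 CPM. The controls differed more from each other than in most members, and Lig1 was higher by 0.58 (standard error 0.09, edgeR adjusted p = 0.000102).

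Rpa1, the large subunit of replication protein A, was higher by 0.24 (edgeR adjusted p = 0.0161), and without Negative Control 2 it was at 0.19 (edgeR adjusted p = 0.188). Rpa3, its smallest subunit, was at 0.18 (95% interval -0.12 to 0.47). Fen1, the flap endonuclease that trims Okazaki fragments before Lig1 seals them, was at 0.13 (95% interval -0.08 to 0.34, edgeR adjusted p = 0.307). The groups overlapped in both Rpa3 and Fen1.

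Deoxynucleotide supply was the role in which all 4 genes rose, with summed levels of 316 ± 19.1 (SD, n = 4) in GapmeR samples and 226 ± 23.2 (SD, n = 2) in controls, in CPM. Rrm2, the subunit that limits ribonucleotide reductase outside S phase, lies on chromosome 12 from 24708254 to 24714146. Its reads numbered 2030, 2702, 1819 and 2245 across GapmeR samples 1 to 4 and 1087 in each control, or 59.9, 69.4, 58.6 and 69.5 CPM against 39.7 and 34.1 CPM. GapmeR 2 and 4 were higher than GapmeR 1 and 3, all were above both controls, and the log2 fold change was 0.81 (standard error 0.09, edgeR adjusted p = 4.69e-06).

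Tk1, the thymidine kinase of dividing cells, had 1608, 2012, 1379 and 1728 counts against 1018 and 932, or 47.5, 51.7, 44.5 and 53.5 CPM against 37.2 and 29.2 CPM, and was higher by 0.57 (standard error 0.10, edgeR adjusted p = 0.000343) with groups apart. Rrm1, the large subunit of ribonucleotide reductase, was higher by 0.40 (edgeR adjusted p = 0.000663). The counts of Rrm2 per count of Rrm1 were 0.424 ± 0.0351 (SD, n = 4) and 0.320 ± 0.00374 (SD, n = 2), so the small subunit gained on the large within the same libraries, in a pair chosen after its values were seen. Tyms, which makes thymidylate, was higher by 0.32 (edgeR adjusted p = 0.00567), and without Negative Control 2 it was at 0.28 (edgeR adjusted p = 0.0813).

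Among the 32 genes called, 21 were called higher under every alternative test, scaling, filter and left-out sample that kept the threshold at an adjusted p under 0.05. These were Orc3 and Orc5 of origin recognition, Cdc6, Mcm2, Mcm4, Mcm5 and Mcm7 of licensing, Mcm10 and Cdc45 of helicase activation, Pola1, Pola2, Prim1, Pold3 and Pole among polymerases and primase, Rfc2 and Rfc5 of the clamp loader, Rpa2 and Lig1, and Rrm1, Rrm2 and Tk1. Of the 14 members that did not pass, 12 had overlapping groups and 3 had an unadjusted p under 0.05, namely Orc2, Gins1 and Cdc7. Not passing does not show that they were level, since the intervals of Orc2, Orc6, Gins1, Cdc7 and Rpa3 reach past the members' median of 0.34.

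Levels were compared between genes per kilobase of annotated exon, as CPM per kb. The length merges the exons of all annotated isoforms of a gene, so the order of genes depends on the annotation. In the controls Pcna was far above all others at 84.8 CPM per kb, followed by Pold2 at 22.5, Mcm3 at 17.9, Mcm7 at 16.6, Rpa1 at 15.6 and Mcm5 at 15.1 CPM per kb. Cdc7 was lowest at 0.589 CPM per kb, below Orc1 at 0.841, Pola1 at 1.11 and Pole2 at 1.46 CPM per kb. Of these neighbours in the order, Mcm7, Rpa1 and Mcm5 lay within an SD of each other, and the SDs of Orc1 and Cdc7 overlapped. Within the MCM ring the control levels ran from 9.28 CPM per kb for Mcm4 to 17.9 for Mcm3, and Mcm7 at 24.5 CPM per kb was the highest of the ring after knockdown.

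**Figure D4:**
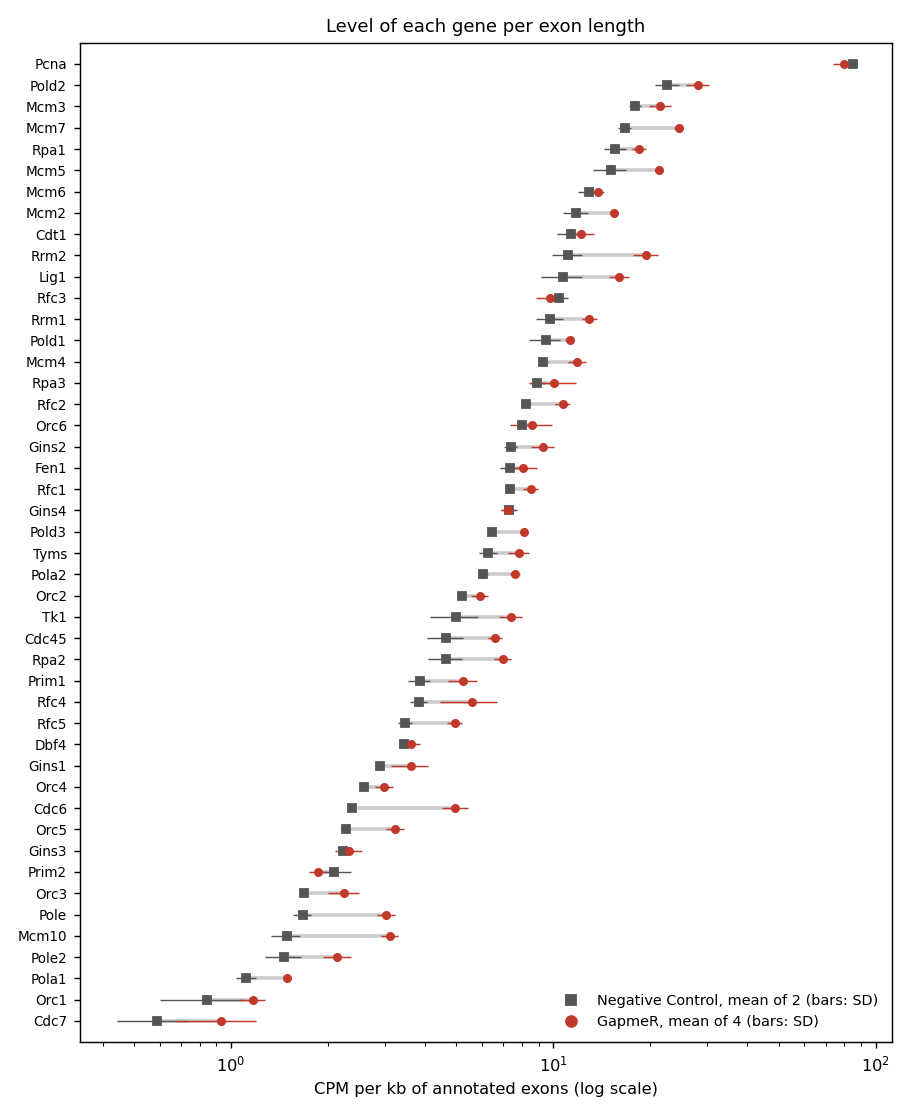
Level of each gene in CPM per kb of annotated exon (horizontal log axis), ordered by the control level, as the mean of 2 Negative Control (grey squares) and 4 GapmeR samples (red circles) with bars for the SD. Of the largest gaps between square and circle, those of Cdc6, Pole and Mcm10 lie at places 36, 41 and 42 of 46 in the order of control levels and that of Rrm2 at place 10, and Pcna at 84.8 CPM per kb in the controls has the circle to the left.

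Across the 46 genes, the log2 control level per kb and the log2 fold change had a Pearson r of -0.395 and a Spearman rho of -0.326, given as a description, since the points share libraries and the control value enters both axes. Pole and Mcm10, at 1.67 and 1.49 CPM per kb in the controls, and Cdc6, at 2.38, were thus among the lower genes and the most raised.

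Strand use in the counting is not given in the sources used here, and 18 of the 46 genes share exonic bases with another tested gene in the GRCm39 annotation. Of these 18, 13 were higher, with a median of 0.40, and of the 28 that share none, 19 were higher and 0 lower, with a median of 0.33. Mcm7 shares 344 exonic bases with Cops6 on the opposite strand, Cdc45 shares 459 with Ufd1, Tk1 shares 630 with Syngr2, and Rfc2 shares 1708 with Lat2. Lig1 shares 444 with Zswim9 and Rpa1 shares 251 with Smyd4. Over all higher members, 19 overlapping genes were tested, of which 3 were higher, 6 lower and 10 not called. The higher genes were Lat2 at 2.45, Smyd4 at 0.78 and Zswim9 at 0.55, and Cops6, Ufd1 and Syngr2, at -0.60, -0.82 and -0.53, were among the lower. Rfc4 shares 368 bases with Eif4a2, which had 68894 counts over the 6 samples where Rfc4 had 2212. Rfc5 and Orc3 share 2905 bases with Wsb2 and 4237 bases with Akirin2. The values of these genes are uncertain to the extent that reads were shared.

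Genes outside the 46 that serve the same process were examined as 4 lists. Of all genes tested, 25.4% were higher and 20.0% lower. Of 38 other replication factors tested, 24 were higher and 4 lower around a median of 0.37 on the log2 scale, and Mcmdc2, with no more than 8 counts in any sample, was not tested. The RecQ helicase Recql4 was higher by 1.36 (standard error 0.15, edgeR adjusted p = 1.76e-06), with means of 3.08 ± 0.189 (SD, n = 2) in the controls and 7.89 ± 0.695 (SD, n = 4) in the GapmeR samples, in CPM. The nuclease and helicase Dna2 was higher by 0.93, the alternative clamp loader subunit Dscc1 by 0.90 and the MCM relative Mcm8 by 0.79, and without Negative Control 2 the edgeR adjusted p of Dna2 was 0.0585 and that of Dscc1 0.164. Without that sample 12 factors were higher, as were 18.2% of all genes tested. The 4 lower genes, named after their values were seen, were Pold4 at -0.79, Chtf8 at -0.41, Pole4 at -0.40 and Asf1a at -0.39. Pold4 and Pole4 are the smallest subunits of polymerases delta and epsilon. Among the other subunits of these enzymes, Pold1, Pold2, Pold3, Pole and Pole2 rose, and Pole3 was at 0.15 (edgeR adjusted p = 0.132).

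A list of 12 genes of the checkpoint that watches over replication and of later cell cycle steps held 6 higher and 0 lower by edgeR, DESeq2 and limma-voom. At an unadjusted edgeR p under 0.05 also 0 were lower, and the median was 0.37. Chek1, the kinase that acts downstream of ATR at stalled forks, was higher by 1.39 (standard error 0.12, edgeR adjusted p = 1.46e-07), with means of 5.31 ± 0.382 (SD, n = 2) in the controls and 14.0 ± 1.12 (SD, n = 4) in the GapmeR samples, in CPM. Rad1, part of a checkpoint clamp shaped like PCNA, was higher by 0.89, the inhibitor of the anaphase-promoting complex Fbxo5 by 0.70 and Cdca5, which holds sister chromatids together, by 0.62. Atr itself was at 0.07 (edgeR adjusted p = 0.665). Rad9a and Hus1, the partners of Rad1 in its clamp, were at 0.04 and -0.10 (edgeR adjusted p = 0.729 and 0.369). Atrip, Rad17 and Etaa1 did not pass either.

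**Figure D5:**
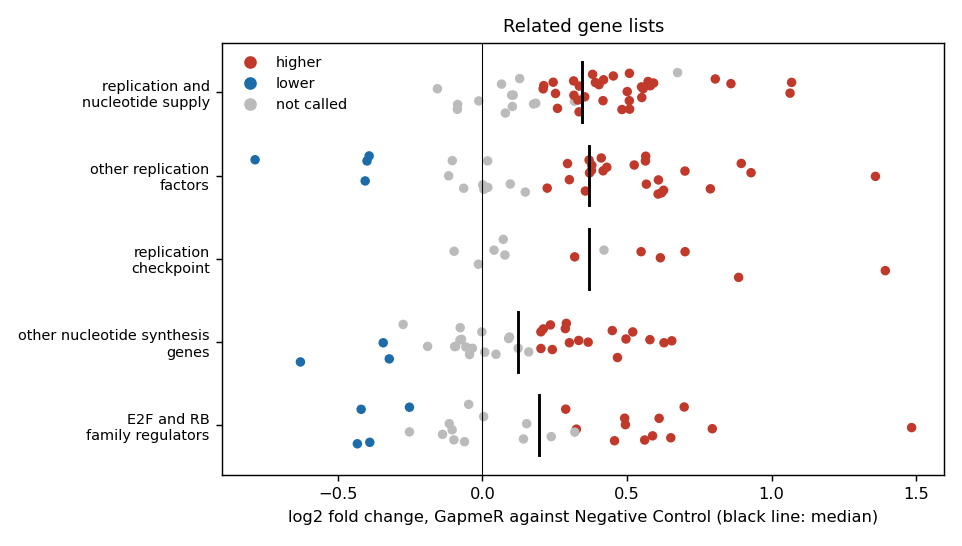
Log2 fold change of every tested gene in the 46 members and in 4 related lists (horizontal axis, 1 point a gene, vertical scatter only for legibility), coloured by call, with black lines at the medians. Higher genes outnumber lower ones in each list, and Pold4 at -0.79, among other replication factors, is the point farthest to the left.

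In nucleotide synthesis beyond the 4 members, 17 of 37 genes were higher and 3 lower, beside 25.4% and 20.0% of all genes tested, and the median was 0.12. Samhd1, which degrades deoxynucleotide triphosphates, fell by 0.63 on the log2 scale (standard error 0.09, edgeR adjusted p = 1.88e-05), with means of 249.9 ± 11.5 (SD, n = 2) in the controls and 162 ± 15.8 (SD, n = 4) in the GapmeR samples, in CPM. The other lower genes, Ctps2 and Cmpk1, named after their values were seen, were at -0.34 and -0.32. Shmt1, which charges folate with a carbon unit, was higher by 0.66, the deaminase Dctd by 0.63 and the deoxycytidine kinase Dck by 0.58. In the plot of related lists, this list had the lowest median. Without Negative Control 2, 8 of its genes were higher, beside 18.2% of all genes tested, without GapmeR 2, 5 were lower, and scaled by library size only, 1 was lower.

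A list of E2F and RB family genes and of other cell cycle regulators, such as Ccne1, Cdkn1b and Myc, held 28 genes. Of these, 12 were higher and 4 lower, with a median of 0.20, beside 25.4% of all genes tested higher and 20.0% lower. E2f2 was higher by 1.48 (standard error 0.34, edgeR adjusted p = 0.00209) at a level near 1 CPM, with means of 0.433 ± 0.0964 (SD, n = 2) in the controls and 1.23 ± 0.268 (SD, n = 4) in the GapmeR samples, in CPM. Ccne1, the cyclin of the G1 to S step, was higher by 0.80, Mybl2, an activator in cycling cells, by 0.70 and Rb1, the retinoblastoma protein that restrains E2F, by 0.65. The lower genes, named after their values were seen, were Myc at -0.43, Cdkn1b at -0.42, E2f5 at -0.39 and Rbl1 at -0.25. Scaled by library size only, 2 genes of the list were lower. E2f1 at -0.06 (edgeR adjusted p = 0.522) and the CDK inhibitor Cdkn1a at -0.12 (edgeR adjusted p = 0.236) did not pass, and both are named after their values were seen.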

How the data were processed

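RNA sequencing of bEND.3 cells was analysed from the read counts per Ensembl gene that the authors deposited, without normalization or filter. The study's methods name ribosomal RNA depletion, paired reads and the bcbio-nextgen pipeline with DESeq2, and the submitters' processing notes name Trimmomatic 0.36, STAR 2.5.2b, Subread 1.5.2 and mm10 (GRCm38). The strand setting of the counting and the release of Ensembl are not given in the sources used here, so overlapping genes may share reads. Samples were grouped by their titles into 4 GapmeR and 2 Negative Control samples, while the study gives n = 4 for each group, and 1 further column of per-sample counts was not used.

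Genes with 5 or more counts in 2 or more samples were tested over the whole table with edgeR 4.0.16 (TMM scaling, robust quasi-likelihood test, R 4.3.3), with Benjamini-Hochberg adjustment over all 18234 genes and a threshold of 0.05. The design had no covariate. CPM values include the TMM factors, and each SD is over samples. The biological coefficient of variation was 8.42%. Replicates differed by more than sampling noise (chi-square per degree of freedom 4.12 to 17.8), so none was counted as a repeat of another. The depth makes 3 counts, the limit that a count of 0 allows, 0.0771 to 0.11 CPM, for counting error only. The members and lists were chosen with earlier results of these data known. For the list of other nucleotide synthesis genes, 1 gene is not reported here and was left out of its counts. All 46 members are named by role, with values in every sample for the 2 members of each role with the largest change among those past the threshold, and up to 4 genes from each other list by the same measure. Per-sample values of Cdc7 and Pcna were added after they were seen.

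Exon lengths and overlaps were taken from GENCODE on GRCm39 by matching Ensembl identifiers, found for 45505 of 49315 genes and all 46 members. Positions and promoter sequences came from RefSeq at GRCm38.p6. Alternatives were DESeq2 size factors, library size only, no filter, at least 10 counts in every sample, DESeq2 1.42.0, limma-voom (limma 3.58.1), a fold of at least 1.5, the replicate number as a block (GapmeR 1 and 2 with both controls) and each sample left out. The functions were tested on simulated data. Figures and motif searches used matplotlib 3.10.9, scipy 1.17.1, pandas 2.3.3 and Python 3.11.15.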

Additional observations from a re-analysis of the deposited data

Results flagged for a closer look

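Among 85 values examined in the 4 GapmeR samples for a sample far from the others, 3 stood out and 0 of these were among the 46 genes, where chance gives about 1 in 20. Cdca5, of the checkpoint list, was at 24.4 CPM in GapmeR 1 and at 28.5 to 29.2 CPM in the other 3. The summed endothelial markers were at 9170 CPM in GapmeR 2 and at 10370 to 10496 CPM in the others. The summed fibroblast markers were at 74.2 CPM in GapmeR 3 and at 15.4 to 20.0 CPM in the others.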

How the results depend on the processing

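The count of members higher was 29 to 39 in every other alternative that kept the threshold, and fell to 21 without Negative Control 2, where all genes called fell to 5238. With each sample left out in turn, 21 to 35 members were higher and 0 to 1 lower, the latter Pcna without GapmeR 2, and the range of members called was 21 to 35 with Pcna included, while all genes called ran from 5238 to 8776. With a control left out, the lone control is assumed to vary like the GapmeR samples. Requiring at least a 1.5-fold change left 5 members and 4628 of all genes. Scaled by library size only, the median of the members was 0.49, and Gins4, Pcna and Rfc3 turned to 0.14, 0.0621 and 0.0631. Gins4 also turned to 0.0344 with at least 10 counts in every sample and to 0.0413 with GapmeR 1 and 2 only. With each sample left out in turn Gins4 ran from -0.0452 to 0.0631, above 0 without GapmeR 3, GapmeR 4 or Negative Control 1, Prim2 from -0.265 to 0.00342 and Rfc3 from -0.141 to 0.000950, the latter both above 0 without Negative Control 1. None of these turned values passed the threshold.

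Whether the replicate numbers of the titles pair the samples cannot be decided here. Deviations of same-numbered samples from their group mean correlated at -0.11 and 0.17 over 8870 genes. The deviations of the 2 controls mirror each other exactly, so these values do not settle it. The fit with the replicate number as a block kept only GapmeR 1 and 2 and both controls. In it 34 members were higher, all 32 with Orc2 and Cdc7 added. It called 7798 genes, the median of the members was 0.39 and Gins4 was at 0.0415. The same samples without the block also gave 34 members higher, again with Orc2 and Cdc7 added. The alternative E2F letters were in 27.1% of member windows in place of 20.8%. The lowest counts in a single sample were 105 for Cdc7, 123 for Orc1, 159 for Gins1 and 164 for Pole2, where the relative counting error is largest.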
